A study of Mus musculus with 6 samples.

Results

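The genes described here serve the folding, entry and quality control of proteins in the endoplasmic reticulum (ER). The list holds 40 genes, and every gene of the list had a probe on the arrays. Each gene was represented by its probe with the highest mean log2 signal over all arrays. All 40 were among the 18233 genes tested, of 36163 gene names on the arrays. The signal of all 40 stood well above background on each of the 6 arrays. By role, 10 encode chaperones and co-chaperones, 4 disulfide isomerases, 8 proteins of ER-associated degradation, 13 proteins of entry into the ER and 5 sensors and factors of the unfolded protein response.

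Secreted and membrane proteins enter the ER through the SEC61 channel, have their signal peptide removed, fold with the help of chaperones and disulfide isomerases, and are returned to the cytosol for degradation when they fail to fold. When unfolded proteins build up, the sensors IRE1 (gene *Ern1*), ATF6 and PERK (gene *Eif2ak3*) start the unfolded protein response, in which the transcription factors XBP1, ATF6 and ATF4 raise the output of folding and degradation genes. In the B lineage this machinery is best known from antibody-secreting plasma cells, and B1a cells of the peritoneal cavity (PC) are known for natural IgM.

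Total RNA came from PC B1a cells, sorted by flow cytometry with CD11b and CD5 among the markers, of 7-week-old female mice on the C57Bl/6 background, as the sample labels spell it. Knockout mice were p40-/-IL-2Rα-/- (written p40-/-CD25-/- in the sample labels), and control mice were p40-/-IL-2Rα+/- (p40-/-CD25+/-), so that the deletion of p40, the subunit of IL-12 and IL-23 encoded by *Il12b*, was shared by both groups and the controls kept 1 copy of the IL-2 receptor α chain gene, *Il2ra*. IL-2Rα was absent from every cell of the knockout mice, not from B cells alone, and these mice develop autoimmune cholangitis. There were 3 arrays per genotype, and the design text gives several mice behind each sample. Whether the 3 samples of a genotype came from separate sorts is not given in the sources used here, so the p-values measure the spread between these samples.

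Every level below is a log2 value relative to the 75th percentile of the processed signal on the same array, and every difference is knockout minus control on this log2 scale. The knockout arrays were dimmer before this scaling. Their 75th percentile was 131, 66.5 and 162 units of processed signal on knockout 1, 2 and 3, against 252 to 272 on the control arrays, and 39.7% to 45.9% of their spots were well above background against 47.2% to 50.6%. Brightness and genotype cannot be told apart here, because every knockout array was dimmer than every control array. For the deleted genes, *Il2ra* had levels of 1.62, 1.13 and 1.35 in control and -0.31, -0.59 and 0.86 in knockout, a difference of -1.38 (SE 0.369, limma adjusted p = 0.121). All 3 knockout levels of *Il2ra* lay below the control levels, that of knockout 3 nearest to them. *Il12b*, deleted in both groups, had means of -2.06 in control and -2.08 in knockout, and both probes were still marked well above background on every array. The position of these probes relative to the deleted parts is not given in the sources used here. All 12 B1a and B cell markers on the list used here were well above background on all 6 arrays, *Cd5* and *Itgam* (CD11b) among them.

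Part of the list shares a sequence feature. The ER stress response element (ERSE) is the DNA motif through which ATF6 and XBP1, together with NF-Y, are known to act on chaperone genes. Such genes are in the list, so the share of its genes with the motif is no independent result. Its letters, CCAAT, then 9 bases of any kind, then CCACG, were searched on both strands in RefSeq promoter windows (GRCm38.p6), from 250 bases before to 50 bases after the transcription start site. Of the 40 genes, 33 had a window, and 9 of them held the motif, against 39 of all 32851 windows, or 0.119%. Of the neighbouring pathway genes described further below that had a window, 0 held it. No window was found for *Hyou1*, *Derl1*, *Sec61a1*, *Ssr2*, *Spcs3*, *Srp19* and *Atf6*. The elements are shown because they name which of the 40 genes carry the classic motif and how each differs in the spacer. They are written 5′ to 3′ on the strand that reads CCAAT, with CCAAT, the NF-Y site, and CCACG in capitals.
Hspa5: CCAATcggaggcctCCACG
Hsp90b1, upstream element: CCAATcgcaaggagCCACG
Hsp90b1, downstream element: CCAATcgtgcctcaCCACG
Calr: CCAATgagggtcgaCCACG
Canx: CCAATcaccacgctCCACG
Creld2: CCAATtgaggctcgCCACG
Dnajc3: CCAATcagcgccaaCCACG
Pdia6: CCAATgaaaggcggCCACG
Derl3: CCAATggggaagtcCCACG
Syvn1: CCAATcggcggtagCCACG
In all 10 elements 6 or 7 of the 9 spacer bases were G or C. The 250 upstream bases of these genes were themselves 56.4% (*Syvn1*) to 73.6% (*Dnajc3*) G and C. The *Hspa5* element lay at chr2:34772025-34772043, read as transcribed, and its first base lay 65 bases before the start site. The *Hsp90b1* elements lay at chr10:86705638-86705656, as transcribed, and at chr10:86705533-86705551, in reverse. The *Derl3* element lay at chr10:75893242-75893260, also in reverse. The other 6 genes held theirs between 44 bases (*Syvn1*) and 162 bases (*Calr*) before the start site. The elements of *Canx* (chr11:50325800-50325818), *Dnajc3* (chr14:118937827-118937845), *Pdia6* (chr12:17266491-17266509) and *Syvn1* (chr19:6046532-6046550) read as transcribed, and those of *Calr* (chr8:84847075-84847093) and *Creld2* (chr15:88819520-88819538) in reverse.

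The 250 bases upstream of the start sites of *Hspa5*, the most widely used marker of the unfolded protein response, and of *Derl3*, the gene of the list with the largest difference between genotypes, are shown to place the element among the CCAAT boxes around it. The element is in capitals, and in *Derl3* it reads CGTGG then ATTGG because it lies in reverse. The windows are chr2:34771840-34772089 and chr10:75893148-75893397, both on the plus strand.
Hspa5: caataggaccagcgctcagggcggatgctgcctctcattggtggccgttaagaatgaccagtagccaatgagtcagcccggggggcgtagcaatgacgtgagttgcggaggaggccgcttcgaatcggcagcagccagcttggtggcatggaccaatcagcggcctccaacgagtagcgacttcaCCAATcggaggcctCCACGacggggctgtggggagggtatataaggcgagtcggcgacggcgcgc
Derl3: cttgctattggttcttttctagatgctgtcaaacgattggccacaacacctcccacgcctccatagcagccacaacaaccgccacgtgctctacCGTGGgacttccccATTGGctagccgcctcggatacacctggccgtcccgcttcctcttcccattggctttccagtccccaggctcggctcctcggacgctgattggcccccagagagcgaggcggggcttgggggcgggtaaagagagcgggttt
The related motif ERSE-II (ATTGG, 1 base of any kind, then CCACG, on both strands) was found in the windows of *Dnajb11* and *Herpud1*, against 0.0365% of all windows. The XBP1 site TGACGTGG was found in 0 of the 33 genes and in 0.676% of all windows, and the C/EBP-ATF site TGATGCAA in *Herpud1* alone of the 33 and in 0.895% of all windows. A missing match says only that these letters are not in this window.

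The ER genes lay lower in knockout B1a cells by a modest amount, and none passed the adjusted threshold. Of the 40 genes, 38 had a difference below 0, against 60.2% of all genes tested. Their median difference was -0.33, beside -0.12 for all genes tested. At an unadjusted limma p of at most 0.05, called the p threshold below, limma put 17 of the 40 lower in knockout, where 13.6% of all genes tested were, and 0 higher, where 11.6% of all genes tested were. Among the genes well above background on every array the share of lower genes was 13.3%. All 3 knockout arrays lay below all 3 control arrays for 21 of the 40, against 21.6% of all genes tested and 22.7% of those well above background on every array, and above them for 0 of the 40, against 14.7%. Of these genes, 0 differed at least 2-fold at that p, against 3.52% of all genes tested. After Benjamini-Hochberg adjustment over all genes tested, limma called 0 of the 40 and 7 genes in all (0.0384%), and the smallest limma adjusted p among the 40 was 0.105. With 3 arrays against 3, an exact permutation test cannot give a p below 0.1. In bulk RNA of a sort, fewer cells of a type and less RNA per cell cannot be told apart.

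**Figure D1:**
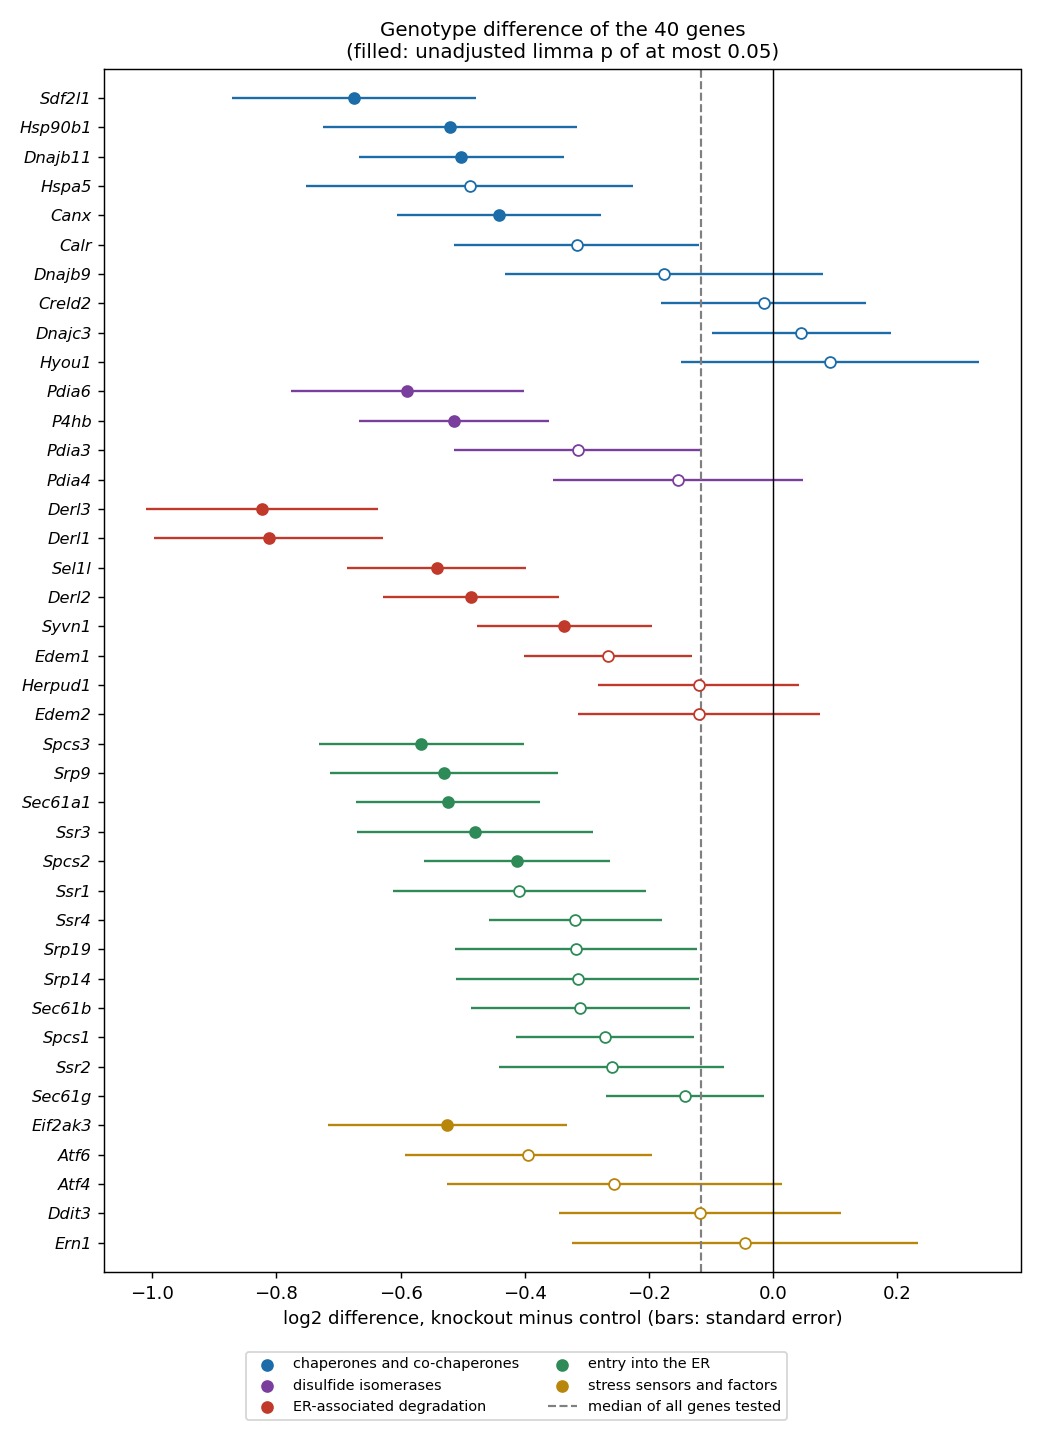
Log2 difference (knockout minus control) of each of the 40 genes with its standard error, grouped by role; filled circles have an unadjusted limma p of at most 0.05 and the dashed line is the median of all genes tested. The circles lie left of 0 for 38 genes, and the leftmost are *Derl3* (-0.82) and *Derl1* (-0.81).

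Because levels of the same array enter every gene, the arrays were also described one by one. The mean level of the 40 genes was 3.74, 3.77 and 3.97 on control 1, 2 and 3 and 3.46, 3.33 and 3.62 on knockout 1, 2 and 3. The genotypes did not overlap in this mean, and the nearest arrays were control 1 and knockout 3. The mean of all genes tested was 1.04 to 1.07 in control and 1.00 to 1.04 in knockout. The lowest level of a gene lay on knockout 2, the dimmest array, for 25 of the 40 (62.5%), against 37.1% of all genes tested. The highest level lay on control 3 for 25 of the 40, against 19.2% of all genes tested. Without knockout 2, 11 of the 40 were lower at the p threshold, beside 10.8% of all genes tested, and without control 3 the count was 7, beside 5.86%.

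**Figure D2:**
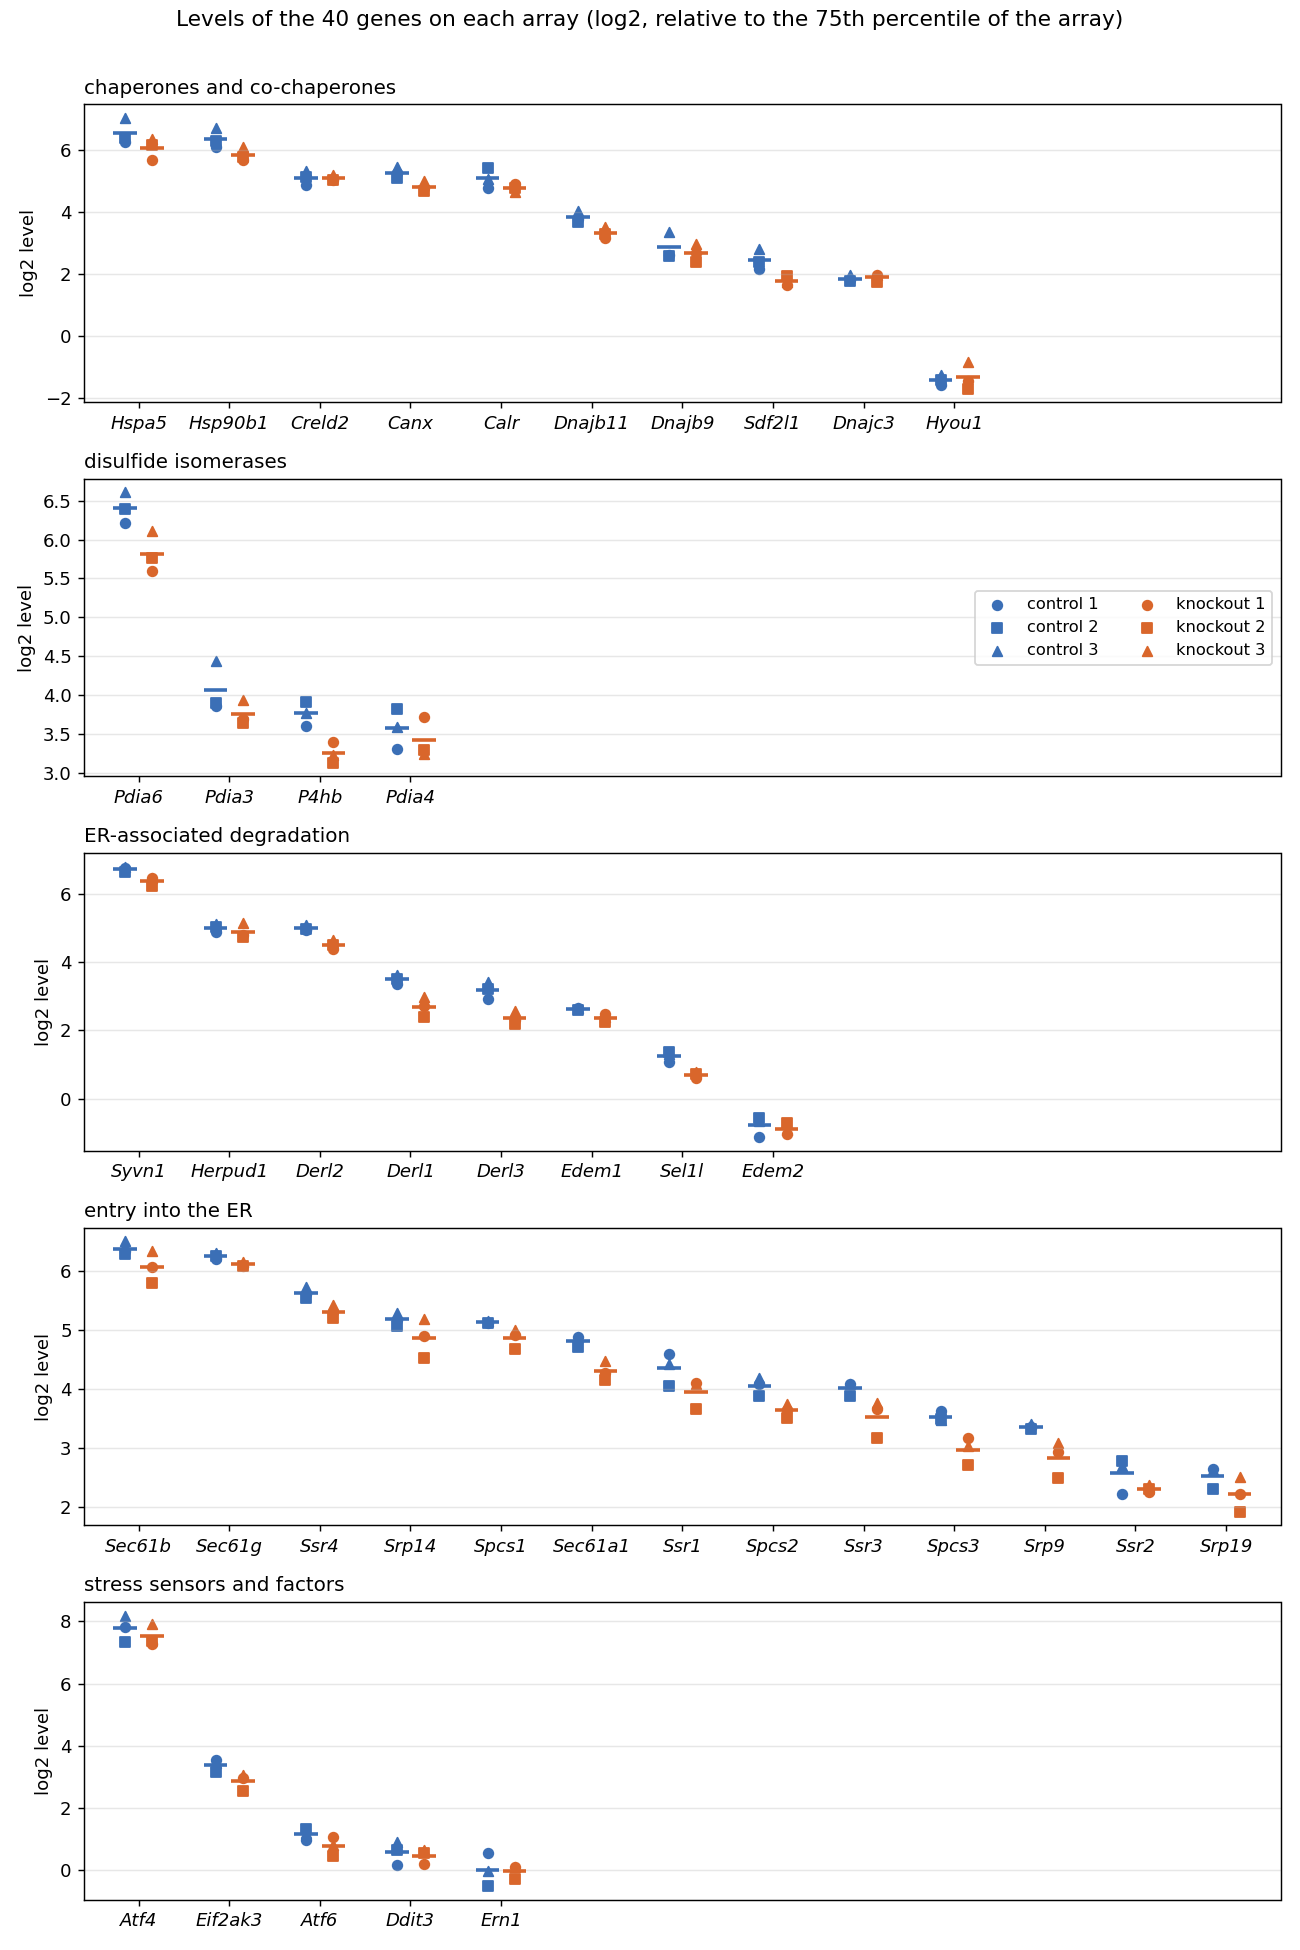
Level of each of the 40 genes on each array (log2, relative to the 75th percentile of the array), in 5 panels by role; symbols mark the replicate, blue is control, orange is knockout, and horizontal bars are the means of 3 arrays. The probe of *Atf4* is the brightest (mean 7.65 over the 6 arrays) and that of *Hyou1* the dimmest (-1.37).

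Among the chaperones and co-chaperones, 8 of 10 had a difference below 0, where 60.2% of all genes tested did, and the median was -0.38. At the p threshold 4 were lower (*Hsp90b1*, *Canx*, *Dnajb11* and *Sdf2l1*). *Hspa5* encodes BiP, the main HSP70 chaperone of the ER, and had the brightest probe of the group. It had levels of 6.26, 6.37 and 7.03 in control and 5.69, 6.17 and 6.35 in knockout. The highest knockout level lay between the control levels, and the difference of -0.49 (SE 0.263) had a limma adjusted p of 0.268. Without control 3 the difference was -0.25. *Sdf2l1*, which encodes a partner of BiP complexes, had the largest difference of the group. Its levels were 2.18, 2.38 and 2.81 in control and 1.65, 1.94 and 1.75 in knockout, without overlap. The mean level was 1.60-fold higher in control, a difference of -0.68 (SE 0.196, limma adjusted p = 0.129). *Hsp90b1*, the gene of the HSP90 chaperone GRP94, had a difference of -0.52, *Dnajb11*, the gene of a BiP co-chaperone, -0.50, and *Canx*, the gene of the lectin chaperone calnexin, -0.44, all without overlap between genotypes. *Calr*, which encodes the other lectin chaperone, calreticulin, had a difference of -0.32, with knockout 1 above control 1.

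The 2 genes with a difference above 0 were both in this group, and neither differed beyond its error. *Hyou1*, which encodes an HSP110-type partner of BiP, had levels of -1.58, -1.41 and -1.24 in control and -1.46, -1.68 and -0.82 in knockout, a difference of 0.091 (SE 0.240) that turned to -0.066 under quantile normalization. *Dnajc3*, the gene of the BiP co-chaperone p58IPK, had levels of 1.81, 1.77 and 1.99 in control and 1.98, 1.76 and 1.98 in knockout, a difference of 0.045 (SE 0.144) that turned to -0.14 under the normexp background with the 75th percentile. *Creld2*, a gene known to respond strongly to ER stress, had 4.86, 5.12 and 5.33 in control and 5.04, 5.03 and 5.18 in knockout. Its knockout levels all lay within the range of the control levels, and the difference of -0.015 turned to 0.15 under quantile normalization.

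All 4 disulfide isomerases had a difference below 0, with a median of -0.41, and *Pdia6* and *P4hb* passed the p threshold. *Pdia6* had the brightest probe of the group, and its protein also works on the sensors of the unfolded protein response. Its levels were 6.22, 6.40 and 6.61 in control and 5.59, 5.76 and 6.10 in knockout. The genotypes did not overlap, and the difference was -0.59 (SE 0.188, limma adjusted p = 0.139). *P4hb*, the gene of protein disulfide isomerase itself, had a difference of -0.51 without overlap, and *Pdia3*, whose protein works with the lectin chaperones, one of -0.31 with overlap. *Pdia4* was at -0.15 with overlap and turned to 0.039 under quantile normalization.

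ER-associated degradation held the 2 largest differences of the 40. All 8 genes had a difference below 0, and the median was -0.41. At the p threshold 5 were lower (*Derl1*, *Derl2*, *Derl3*, *Sel1l* and *Syvn1*), and 6 did not overlap between genotypes. The derlins are membrane proteins through which misfolded proteins leave the ER, and *Derl3* is the family member best known from secretory cells. *Derl3* had levels of 2.91, 3.21 and 3.42 in control and 2.32, 2.19 and 2.57 in knockout. The highest knockout level lay below the lowest control level. The mean was 1.77-fold higher in control, with a difference of -0.82 (SE 0.186, limma adjusted p = 0.105). Its probe (NM_024440) lies at chr10:75358503-75358562 in mm9, the build of the array files.

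*Derl1* had levels of 3.36, 3.51 and 3.63 in control and 2.70, 2.39 and 2.97 in knockout. All knockout levels lay below the control levels, and the mean was 1.76-fold higher in control, a difference of -0.81 (SE 0.185, limma adjusted p = 0.105). The probe (NM_024207) lies at chr15:57703097-57703156 in mm9, and a further *Derl1* probe had a difference of -0.38. *Derl2* followed with -0.49, from 4.95, 4.96 and 5.09 in control to 4.37, 4.51 and 4.65 in knockout. *Sel1l* and *Syvn1* encode the adaptor and the ubiquitin ligase, HRD1, of 1 complex, and differed by -0.54 and -0.34. *Syvn1* had the brightest probe of the group, at 6.74, 6.63 and 6.79 in control against 6.45, 6.23 and 6.46 in knockout. The remaining genes of the group were *Edem1* (-0.27, without overlap), which encodes a factor that picks glycoproteins for degradation, its relative *Edem2* (-0.12) and *Herpud1* (-0.12). *Edem2* turned to 0.017 under the normexp background with the 75th percentile, and *Herpud1*, an early target of the stress response, to 0.065 under quantile normalization.

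Every gene of entry into the ER had a lower mean in knockout. All 13 had a difference below 0, 5 of them at the p threshold (*Sec61a1*, *Ssr3*, *Spcs2*, *Spcs3* and *Srp9*), and 8 did not overlap between genotypes. The median difference was -0.32 and the range ran from -0.57 to -0.14. The mean level of the group was 4.46, 4.36 and 4.52 in control and 4.12, 3.86 and 4.24 in knockout, so that each knockout array lay below each control array. For the SEC61 channel, *Sec61a1*, which encodes the pore, had levels of 4.88, 4.71 and 4.88 in control and 4.27, 4.15 and 4.47 in knockout, a difference of -0.52 (SE 0.148, limma adjusted p = 0.124). *Sec61b*, the gene with the brightest probe of the group, had levels of 6.35, 6.29 and 6.51 in control and 6.07, 5.81 and 6.34 in knockout. Knockout 3 lay above control 2, and the difference was -0.31 (SE 0.176, limma adjusted p = 0.285). *Sec61g*, the third subunit, was tight within both genotypes, at 6.21, 6.25 and 6.32 in control and 6.10, 6.09 and 6.16 in knockout, with the smallest difference of the group (-0.14).

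The signal peptidase genes *Spcs1*, *Spcs2* and *Spcs3* differed by -0.27, -0.41 and -0.57, all without overlap. With the mean of a gene's tested probes in place of its brightest, *Spcs2* moved to -0.022, *Spcs3* to -0.28, *Ssr3* to -0.12 and *Derl2* to -0.32, and these 4 no longer passed the p threshold. *Spcs3*, which encodes a subunit that the enzyme needs to cut, had levels of 3.62, 3.48 and 3.48 in control and 3.17, 2.70 and 3.02 in knockout (SE 0.165, limma adjusted p = 0.129). The *Ssr* genes encode the translocon-associated complex, and their differences were -0.41 for *Ssr1*, -0.26 for *Ssr2*, -0.48 for *Ssr3* and -0.32 for *Ssr4*. *Ssr3* and *Ssr4* did not overlap between genotypes, while *Ssr1* and *Ssr2* did. For the signal recognition particle, which halts a nascent chain and brings it to the ER, *Srp9* differed by -0.53 without overlap, and *Srp14* and *Srp19* differed by -0.31 and -0.32 with overlap. The control levels of *Srp9* were 3.36, 3.32 and 3.40, and its knockout levels were 2.93, 2.48 and 3.08, lowest on the dimmest array.

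The 5 sensors and factors of the unfolded protein response all had differences below 0, with a median of -0.26. The p threshold was passed by 1 of the 5, near the 13.6% of all genes tested. *Eif2ak3*, the gene of PERK, had levels of 3.55, 3.15 and 3.44 in control and 2.97, 2.54 and 3.05 in knockout. The genotypes did not overlap, and the difference was -0.52 (SE 0.192, limma adjusted p = 0.164). *Atf6* had levels of 0.98, 1.32 and 1.201 in control and 1.08, 0.45 and 0.79 in knockout, a difference of -0.39 (SE 0.199, limma adjusted p = 0.246) with knockout 1 within the control range. *Ern1*, the gene of IRE1, had 0.55, -0.51 and -0.010 in control and 0.10, -0.30 and 0.087 in knockout. The control levels of *Ern1* spanned those of knockout, and its difference of -0.046 (SE 0.279) turned to 0.045 when arrays were scaled on the median of the probes detected on all arrays.

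PERK acts through *Atf4*, whose product drives *Ddit3* (CHOP). *Atf4* had the brightest probe of the 40 genes, with 7.81, 7.33 and 8.19 in control and 7.27, 7.36 and 7.93 in knockout, a difference of -0.26 (SE 0.270, limma adjusted p = 0.539). *Ddit3* had 0.17, 0.65 and 0.91 in control and 0.20, 0.54 and 0.64 in knockout, a difference of -0.12 (SE 0.227, limma adjusted p = 0.746). For both genes the spread within control was wider than the difference between genotypes. *Atf4* is controlled mainly at translation and ATF6, IRE1 and PERK by their activation, which these arrays did not measure.

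Genes with and without the ERSE are given side by side, with no test. Of the 9 genes with the element, 5 were lower at the p threshold (*Canx*, *Derl3*, *Hsp90b1*, *Pdia6* and *Syvn1*) and their median difference was -0.44, with a range from -0.82 to 0.045. Of the 24 genes with a window and no element, 9 were lower at that p, and their median was -0.31. Genes with the element stood at both ends, with *Derl3* at -0.82 and *Dnajc3* and *Creld2* at 0.045 and -0.015.

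The probes of the 40 genes were among the brighter ones, which is no measure of transcript number between genes, and the genotype difference over all genes moved with level. Of the 40, 36 lay above the median level of all genes tested, and the median of their mean levels was 3.68 against 0.85 for all genes. Between levels of 2 and 4, all genes tested had a median difference of -0.24 and 20.5% were lower at the p threshold, while the 16 ER genes there had a median of -0.49 and 10 were lower. Between 4 and 6, the median of all genes was -0.24 and 19.4% were lower, against a median of -0.32 and 3 of 10 ER genes. At 6 and above, the median of all genes was 0.15 and 4.35% were lower, against a median of -0.34 and 3 of 7 ER genes. Among genes with levels below 0 the median was 0.076, and the 3 ER genes there had a median of -0.046 and 0 of them were lower at that p. Across the 40 genes, level and difference had a Pearson r of -0.22, and across all genes tested one of -0.094; genes on the same arrays share their scaling and are not independent.

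**Figure D3:**
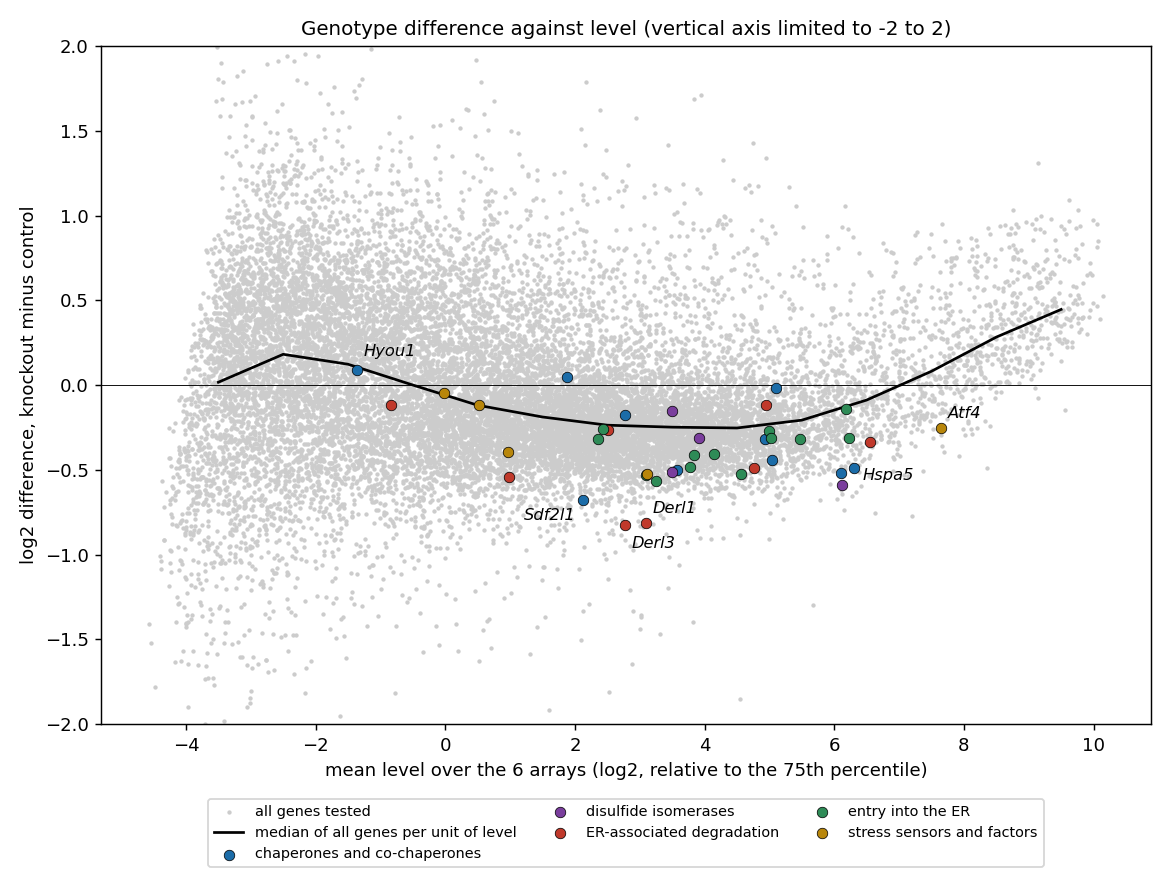
Log2 difference (knockout minus control) against mean level over the 6 arrays for all genes tested (grey) and the 40 ER genes (coloured by role), with the median of all genes per unit of level as a line; 53 genes outside the plotted range are not shown. The median of all genes dips to about -0.24 at levels from 2 to 6 and lies above 0 at the highest levels, and most ER genes lie below the line.

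For 13 of the 40 genes the arrays held further probes, 16 in all, of which 15 were tested in a fit of each probe on its own. The sign was that of the representing probe for 11 of them and opposite for 4, which belonged to *Dnajb9*, *Spcs2*, *Spcs3* and *Ssr3*. *Dnajb9*, which encodes the BiP co-chaperone ERdj4, stood out. Its representing probe had levels of 2.63, 2.59 and 3.36 in control and 2.70, 2.39 and 2.97 in knockout, a difference of -0.18, while its dimmer probe had 0.39, -0.33 and 0.66 in control and 1.103, 1.28 and 1.08 in knockout. The dimmer probe did not overlap between genotypes and was higher in knockout by 0.92 (SE 0.259, limma adjusted p over all probes = 0.124), past the p threshold before adjustment, so the direction for *Dnajb9* depends on the probe, and its representing probe too turned to 0.014 under quantile normalization. The dimmer *Spcs2* probe was higher in knockout by 0.37, at 1.52, 1.28 and 1.58 in control and 1.77, 1.92 and 1.80 in knockout, also without overlap and past the p threshold before adjustment. The further probes of *Spcs3* and *Ssr3* had differences of 0.013 and 0.23. Why probes of 1 gene differed was not tested.

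Most neighbouring genes of the pathway had a difference below 0 as well. The lists held 138 genes outside the 40, of which 135 were named on the arrays and 126 were tested. Of these 126, 116 had a difference below 0, where 60.2% of all genes tested did. At the p threshold 39 were lower and 1 was higher, where 13.6% and 11.6% of all genes tested were. The knockout arrays all lay below the control arrays for 65 of them, where they did for 21.6% of all genes tested. Their median difference was -0.31. After Benjamini-Hochberg adjustment limma called 0 of the 126, and the smallest adjusted p was 0.105.

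The list of oligosaccharyltransferase and glycan trimming, which attaches N-glycans and reads them during folding, had 10 of 16 genes lower at that p and a median of -0.41. *Mcfd2*, which encodes a partner of the cargo receptor LMAN1, was the lowest of this list at -0.61, with levels of 3.00, 3.30 and 3.19 in control and 2.65, 2.42 and 2.60 in knockout. *Magt1*, an oxidoreductase subunit of 1 form of the transferase, was the highest at 0.13 with overlap, and turned to -0.14 under the normexp background with the 75th percentile. In ER to Golgi traffic 11 of 34 genes were lower, from *Tmed3*, which encodes a cargo receptor of the p24 family (-0.56), to its relative *Tmed5* (0.22). Among redox and further folding genes 6 of 16 were lower. *Manf*, which encodes a secreted ER stress protein, had levels of 2.94, 3.23 and 3.63 in control and 2.26, 2.58 and 2.89 in knockout, a difference of -0.69, and *Selm*, a selenoprotein gene, one of 0.17 that turned to -0.38 with array weights.

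Among further degradation genes 4 of 16 were lower, from *Edem3* (-0.72), a relative of *Edem1*, to the ubiquitin-conjugating enzyme gene *Ube2j1* (0.090), which turned to -0.20 under the normexp background with the 75th percentile. Among further translocation genes 2 of 12 were lower, close to the 13.6% of all genes tested, from the signal peptidase gene *Sec11a* (-0.53) to *Srp54b* (0.18), which turned to -0.0018 under quantile normalization. In the XBP1 and ATF6 arm 3 of 8 were lower and 1 was higher. *Xbp1* itself had levels of 5.15, 5.32 and 5.54 in control and 4.55, 4.90 and 4.995 in knockout, without overlap, a difference of -0.52 (SE 0.181, limma adjusted p = 0.153). The probe does not tell the spliced, active form of the *Xbp1* transcript from the unspliced one, as far as the sources used here say. *Atf6b*, the gene of the ATF6 relative, was at -0.58, and *Mbtps2*, the gene of the site-2 protease that frees ATF6, was higher in knockout by 0.75, at -1.28, -1.45 and -1.30 in control and -0.46, -1.005 and -0.32 in knockout (limma adjusted p = 0.122). The ATF4 and CHOP arm had the smallest median of these lists, -0.19, with 3 of 24 lower, also close to the 13.6% of all genes tested, and its ends were *Ddit4* (-0.61, limma adjusted p = 0.219), an inhibitor of mTORC1 signalling, and *Chac1* (0.71, limma adjusted p = 0.524), with levels of -3.92, -4.32 and -2.32 in control and -2.13, -2.002 and -4.28 in knockout, knockout 3 lying within the control range. The *Chac1* difference ran from 0.31 to 1.45 with 1 array left out and from 0.082 to 0.80 under the other alternatives, with limma adjusted p from 0.0334 to 0.841.

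Markers of other cells also moved with genotype. Of the 11 plasma cell markers 9 were on the arrays, and 7 stood well above background on all 6. Their summed level, the log2 of the summed relative signals, was 6.15 to 6.28 in control and 5.61 to 5.94 in knockout. *Igj*, the gene of the antibody J chain, had levels of 2.91, 2.29 and 2.47 in control and 0.42, -0.55 and 2.04 in knockout, without overlap, and *Sdc1* (CD138) was well above background on the 3 control arrays and on 0 knockout arrays, with overlapping levels of -3.76, -4.11 and -2.68 in control and -4.04, -4.31 and -5.95 in knockout. *Tnfrsf17* (BCMA) was not well above background on any array. *Irf4* had levels of 4.59, 4.77 and 4.45 in control and 4.34, 4.10 and 4.48 in knockout, with overlap. *Xbp1* is a member of this list and, with *Irf4*, had its brightest probes, so the sum rests mainly on those 2 genes. The other markers of the list overlapped between genotypes, with differences of 0.71 for *Cd28*, -0.091 for *Slamf7*, -0.035 for *Ell2* and -0.48 for *Prdm1*. The lowest levels of *Slamf7* (-1.10), *Ell2* (-0.47) and *Prdm1* (-0.57) lay on knockout 2, the dimmest array. Of the 8 tested, 2 were lower at the p threshold and 0 were higher.

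Of 10 mesothelial and stromal markers, 2 were well above background on all 6 arrays and 5 on none, and the summed level was 4.08 to 4.42 in control and 2.77 to 3.56 in knockout. That sum rests on the keratin genes *Krt18*, with a difference of -1.81 and no overlap, and *Krt8*, with one of -0.71 and overlap. The collagen gene *Col1a2* went the other way, with levels of -4.30, -4.22 and -4.02 in control, where it was well above background on 2 arrays, and -1.77, -1.03 and -1.61 in knockout. It entered the test only through the knockout arrays, so its difference of 2.72 (SE 0.217, limma adjusted p = 0.0175) is given as a description. *Col1a1* was not tested, being well above background on 1 knockout array and 0 control arrays. All its knockout levels lay above all control levels. The levels of *Krt19*, *Msln*, *Upk3b* and *Upk1b*, well above background on no array, did so too, while those of *Col3a1*, also on none, overlapped. For probes this dim the order of the genotypes is only a description, since every knockout array was dimmer before scaling. Of 14 macrophage markers 13 were on the arrays and 11 stood well above background on all 6, and the summed level was 4.57 to 5.96 in control and 4.30 to 5.08 in knockout, with overlap. Of the 12 tested, 3 were lower at the p threshold and 0 were higher. They were *Retnla* (-3.06) and *Mrc1* (-1.08), both without overlap, and *Lyz2* (-1.08), with overlap. The summed level of T cell markers was 8.04 to 8.09 in control and 7.72 to 8.20 in knockout, and rests almost wholly on the *Cd2* probe, with a difference of -0.15. Of the 6 T cell markers tested, 2 were higher at the p threshold and 0 were lower. They were *Cd3e*, by 0.60 without overlap, and the dim *Cd3d* (mean -2.73 in control), by 1.41 with overlap. The median of the list was 0.46. The CD3 genes did not move together, since *Cd3g* had a difference of -0.28, with overlap. *Lat* (1.19) and *Cd4* (0.33) also overlapped between genotypes. The summed level of NK cell markers was -0.78 to -0.42 in control and -0.49 to 0.13 in knockout, that of mast cell and granulocyte markers 0.26 to 2.29 and 0.37 to 1.196, and that of erythroid markers -0.85 to -0.33 and -0.59 to 1.92, all with overlap. The summed level of B cell markers was 10.42 to 10.48 in control and 10.49 to 10.67 in knockout, without overlap. Of the 12 tested, 3 were higher at the p threshold, *Pax5* (0.57), *Bhlhe41* (0.55) and *Spn* (0.42), and 1 was lower, *Ctla4* (-0.44). The sort marker *Itgam* had a difference of 0.79, without overlap and not past the p threshold. Its levels were 4.37, 4.21 and 4.05 in control and 4.73, 5.86 and 4.40 in knockout, highest on knockout 2, the dimmest array. For all these marker lists the counts stand beside 13.6% lower and 11.6% higher among all genes tested, and with so few markers a list they are given as a description. The part of these cells in the difference of the ER genes was not tested.

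The size of the difference depended on how arrays were scaled, while its direction over the list did not. Under the 5 other scalings the median of the 40 genes ran from -0.62 to -0.21, beside -0.097 to -0.025 for all genes tested, and 35 to 38 of the 40 had a difference below 0. The genes lower at the p threshold under the scaling used here and under all 5 others were *Sdf2l1*, *Pdia6*, *Derl1*, *Derl2*, *Derl3*, *Sel1l*, *Sec61a1* and *Spcs3*. Those lower at that p whichever array was left out were *Sdf2l1*, *P4hb*, *Derl1*, *Derl3*, *Sel1l*, *Sec61a1* and *Spcs3*. The share of all genes tested that meets either rule was not worked out, so these names are given as a description. Correcting the background with normexp before the 75th percentile gave 31 of 40 genes lower at that p, beside 27.9% of all genes tested, and limma then called 25 of the 40 and 6469 of all genes tested, or 35.5%, after Benjamini-Hochberg adjustment.

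**Figure D4:**
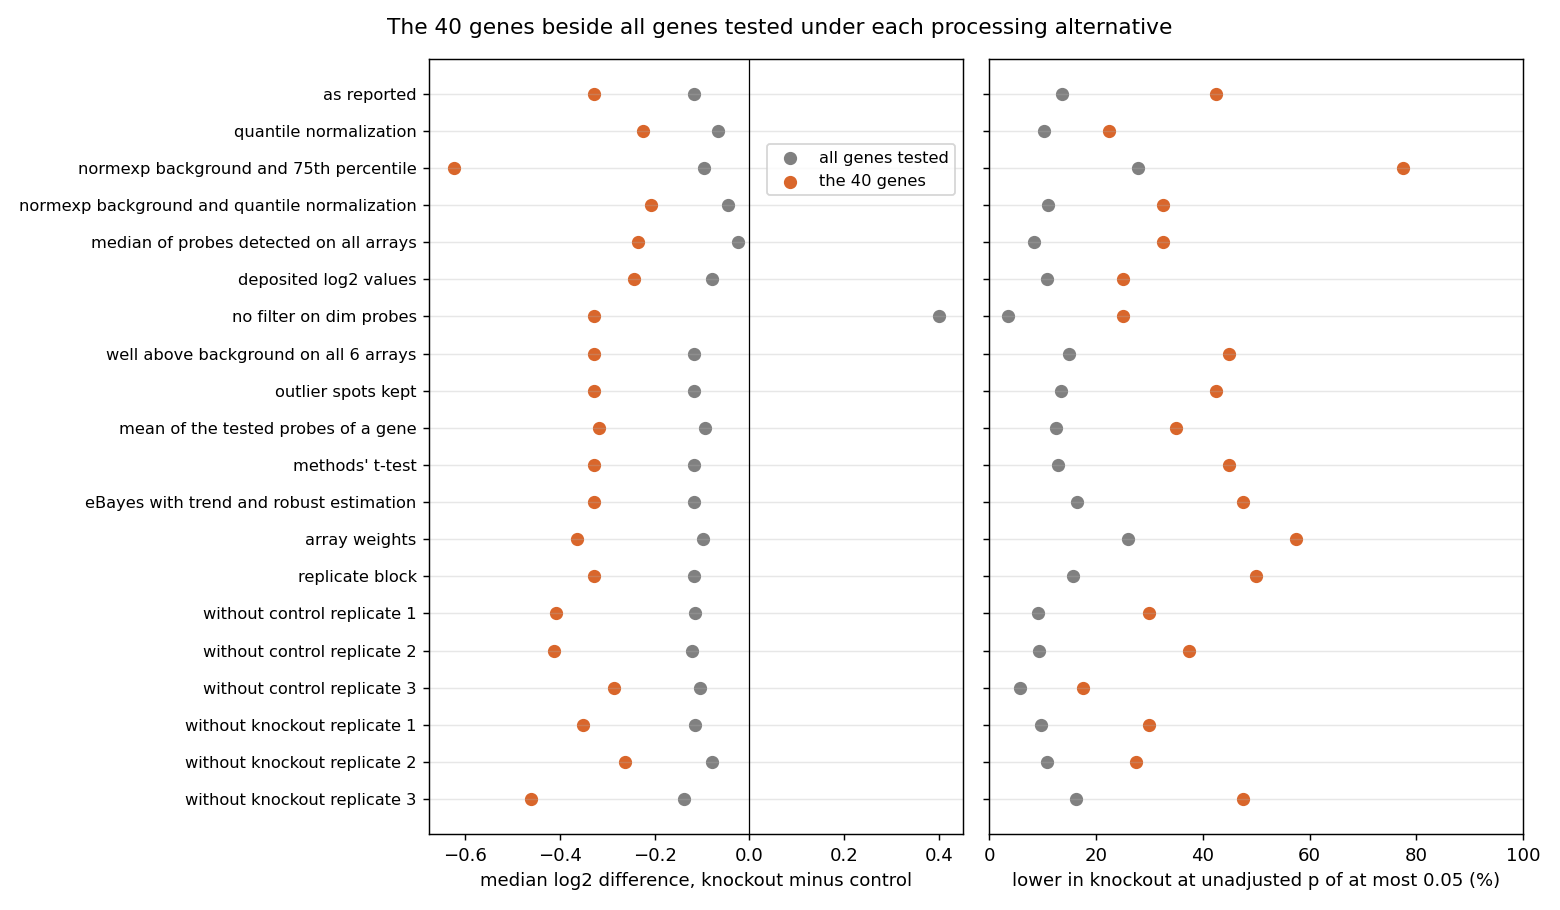
Median log2 difference (left, knockout minus control) and percent of genes lower in knockout at an unadjusted p of at most 0.05 (right) for the 40 ER genes (orange) and all genes tested (grey), as reported and under each processing alternative. The median of the ER genes lies between -0.62 and -0.21 throughout, left of the median of all genes tested in each row of the plot.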

How the data were processed

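RNA of sorted PC B1a cells was hybridized to 1-colour Agilent mouse arrays. The authors read them with Agilent Feature Extraction 10.7.1.1 and deposited the processed intensity of each spot, background subtracted and not scaled between arrays. The authors also deposited a table of log2 values, whose sorted columns differ by at most 0.000545, as after quantile normalization. From the intensities, log2 of the processed signal minus the 75th percentile of the array's 59305 non-control spots was computed. Between 163 and 251 outlier spots per array were dropped, and replicate spots were averaged by probe. Genes entered the test when, in either genotype, the probe stood well above background on 3 of 3 arrays, with a minimum of 2 measured arrays per genotype. Genotypes were compared over all genes tested by limma 3.58.1 (lmFit, then eBayes; R 4.3.3), with Benjamini-Hochberg adjustment and a threshold of 0.05; all 2-group adjusted p-values are from that fit unless stated. The 40 genes, the lists and the tests were chosen with earlier results of these data known. Named with values are the 5 lowest and the 5 highest differences (2 of them above 0), *Hspa5*, the 5 sensors and factors, the gene with the brightest probe per role, *Xbp1*, and the extremes of each further list; other values illustrate the roles, and the further probes were singled out after their values were seen. Alternatives were other scalings and background corrections, other filters, the mean of a gene's probes, the methods' t-test, trend and robust eBayes, array weights, a replicate block and each array left out. The 6 arrays shared 1 slide and 1 scan. The steps were checked on simulated data. Precision is limited by having 3 arrays per genotype, and 0 columns of per-sample values were left unused. Motif windows are from RefSeq (GRCm38.p6), and probe coordinates are in mm9 as in the array files.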

Additional observations from a re-analysis of the deposited data

How the results depend on the processing

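With 1 value per gene, 0 of the 40 were higher in knockout at an unadjusted p of at most 0.05 under the alternatives run; probe by probe, a dimmer probe of *Dnajb9* (0.92) and of *Spcs2* (0.37) was. The count of lower genes was 17 as reported, beside 13.6% of all genes tested. It was 9 under quantile normalization (10.3% of all genes tested) and 31 with the normexp background and the 75th percentile (27.9%). It was 10 with the deposited log2 values (10.8%) and 10 with no filter on dim probes (3.45%). With 1 array left out it ran from 7 to 19, beside 5.86% to 16.2%. It was 7 without control 3 (5.86%) and 11 without knockout 2 (10.8%). The count after adjustment, 0 as reported, was 25 with the normexp background and the 75th percentile, 2 with trend and robust eBayes (755 of 18233 genes) and 17 with array weights (4479 genes), and with that normexp setting 2 genes passed 2-fold and the median of the 40 was -0.62. Without the filter the median of all genes moved from -0.12 to 0.40. The cause was not tested. Same-numbered arrays had correlated deviations of 0.185, 0.056 and 0.094, and other pairs of -0.192 to 0.068, too weak in 2 pairs to treat the numbers as pairs. With the replicate block 20 of the 40 genes were lower, beside 15.7% of all genes tested, and 0 of the 40 passed adjustment. No slide or scan block was run, since all arrays share both. Of 760 values of the 40 genes under alternatives, 730 kept their sign, and 31 genes kept it throughout. The alternatives were read for the 40 genes, *Xbp1* and the extremes of each further list, not for the other marker genes or the deleted genes. Some of the values read kept their sign with 1 array left out but shrank by over 1.5 times. Each at its smallest, these were *Hspa5* (-0.25), *Pdia3* (-0.13) and *Atf4* (-0.050) without control 3. Without control 2 they were *Calr* and *Ssr2* (both -0.15), *Pdia4* (-0.030), *Edem2* (-0.011), *Dnajc3* (0.0027) and *Tmed5* (0.14). *Ddit4* was at -0.28 without knockout 1. Without knockout 2 they were *Chac1* (0.31), *Herpud1* (-0.049), *Edem3* (-0.42), *Ssr3* (-0.30), *Ssr1* (-0.26), *Atf6* (-0.23), *Sec61b* (-0.18), *Spcs1* (-0.18), *Srp19* (-0.17) and *Srp14* (-0.14).

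The values that turned sign were, under quantile normalization, *Hyou1* -0.066, *Dnajb9* 0.014, *Creld2* 0.15, *Pdia4* 0.039, *Herpud1* 0.065 and *Srp54b* -0.0018. With the deposited values they were *Hyou1* -0.071, *Dnajb9* 0.0061, *Creld2* 0.15, *Pdia4* 0.028, *Herpud1* 0.056 and *Srp54b* -0.01004. With normexp and quantile they were *Creld2* 0.15, *Pdia4* 0.057, *Herpud1* 0.055 and *Srp54b* -0.0103, and with normexp and the 75th percentile *Dnajc3* -0.14, *Edem2* 0.017, *Tmed5* -0.0013, *Ube2j1* -0.20 and *Magt1* -0.14. Scaled on the median of detected probes they were *Creld2* 0.076 and *Ern1* 0.045, with the mean of probes *Dnajb9* 0.37, and with array weights *Hyou1* -0.016, *Pdia4* 0.043, *Ern1* 0.070, *Ube2j1* -0.0125, *Srp54b* -0.041 and *Selm* -0.38. With 1 array left out the ranges were -0.16 to 0.27 for *Hyou1*, -0.32 to 0.074 for *Dnajb9*, -0.14 to 0.0995 for *Creld2*, -0.31 to 0.23 for *Ern1*, -0.32 to 0.051 for *Ddit3*, -0.015 to 0.22 for *Ube2j1*, -0.042 to 0.30 for *Srp54b* and -0.29 to 0.42 for *Selm*.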
